A study of Mus musculus with 6 samples.

Results

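The subject is chromatin that lay in lamina-associated domains (LADs) of mouse embryonic fibroblasts (MEFs) after RNAi against lamin C or lamin B1 and outside them after RNAi against lamin A. It comprised 337 stretches of chromosomes 1 to 19, with 38.4 Mb in all. They were found from the deposited LAD lists, which held 5023 LADs on these chromosomes (1680 in the LmnA RNAi map, 1699 in the LmnC RNAi map and 1644 in the LmnB1 RNAi map). The union of the LmnC RNAi and LmnB1 RNAi LADs was taken, the LmnA RNAi LADs were subtracted, and contiguous remainders of at least 50 kb with at least 20 GATC fragments were kept. The members were thus chosen by the borders of the authors' LAD lists of the same maps, and the level of a stretch in a map is a description of how it was chosen and not separate evidence.

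The cells were MEFs of strain C57BL/6 with the wild type genotype. After puromycin selection, the cells, which had received lentiviral shRNA against LmnA, LmnC or LmnB1, were transduced with Dam alone or with Dam fused to a lamin. The fusion was Dam-LmnB1 in the LmnA RNAi map and in the LmnC RNAi map, and Dam-LmnA in the LmnB1 RNAi map, per the sample titles. The protocol text names only shRNA against LmnA or LmnC and only the Dam-Lamin B1 fusion, so the third pair rests on titles and descriptions. Each map joined 1 Dam-only and 1 fusion library, which makes 6 libraries, 3 maps and no replicates. Differences between maps therefore have no replicate check and no p-value, and the depletion of each lamin was not measured in these data. Cells that carry no shRNA were not analysed here, so absence from the LmnA RNAi LADs cannot be called a loss.

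Lamins are intermediate filament proteins that form a meshwork under the inner nuclear membrane. The Lmna gene gives lamins A and C by alternative splicing, while lamin B1 comes from Lmnb1 and stays anchored in the membrane. LADs are long domains of mostly silent, gene-poor and late-replicating chromatin that touch this meshwork. In DamID a bacterial adenine methyltransferase marks GATC sites near the protein it is fused to, and freely diffusing Dam gives the background. The deposited value of a GATC fragment is log2 of fusion over Dam-only reads, shifted by a constant of its map. Higher values mean more lamina contact relative to background. A fragment with equal reads in both libraries has -0.34, 0.21 and -0.15 in the LmnA, LmnC and LmnB1 RNAi maps. What these shifts correct for was not tested, so 0 is not taken as the background level. Such a ratio is relative within its map and does not give the share of cells in which a site touches the lamina.

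LADs of the LmnA RNAi map lacked little that the other maps held. The 337 stretches made up 2.55% of the 1504 Mb in LADs of the LmnC RNAi or LmnB1 RNAi map. The same rule with the LmnC RNAi LADs subtracted gave 1171 stretches and 250.2 Mb, which was 15.1% of the LADs of its other maps. With the LmnB1 RNAi LADs subtracted it gave 1152 stretches and 237.9 Mb, or 14.4%. LADs covered 66.8% of autosomal fragment length in the LmnA RNAi map, 57.7% in the LmnC RNAi map and 58.6% in the LmnB1 RNAi map, and the widest list left out the least. The stretches were also shorter, with a median of 93.2 kb (interquartile range 67.9 to 136.1 kb), against medians of 142.1 kb and 145.9 kb under the mirrored rules. The longest was 583.9 kb, and 2 reached 500 kb, against 96 and 75 under the mirrored rules. Of the 337 stretches, 152 were at least 100 kb and 8 at least 300 kb long. The number of fragments in a stretch ran from 106 to 1394, with a median of 225.

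How many stretches the LADs of both other maps shared depended on the cover required. In 110 stretches (12.3 Mb) LADs of each other map covered at least 50% of the length, 39 stretches lay wholly in both, and 176 of 337 had at least 1 bp in each. A further 98 stretches (12.5 Mb) were mainly in LmnC RNAi LADs, and 129 (13.5 Mb) mainly in LmnB1 RNAi LADs. Of these, 70 had no base in LmnB1 RNAi LADs and 91 had none in LmnC RNAi LADs. Only the comparison with the LmnC RNAi map keeps the fusion the same. Between the LmnA RNAi and LmnB1 RNAi maps the target and the fusion changed together and cannot be told apart.

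By position the stretches fell into 3 kinds. Bridges, which met a LmnA RNAi LAD at both ends and so filled a whole gap between these LADs, numbered 114 (10.8 Mb, median 79.6 kb). Edge stretches met a LmnA RNAi LAD at 1 end and numbered 154 (15.3 Mb, median 83.6 kb). Isolated stretches met none and numbered 69 (12.3 Mb, median 146.7 kb). The isolated kind holds only whole domains of the other lists, whose shortest LADs are about 100 kb, so its greater length is partly set by construction. The nearest LmnA RNAi LAD lay 7.98 to 3113 kb from an isolated stretch (median 183.0 kb), within 100 kb in 19 cases and beyond 500 kb in 11. Of the stretches in LADs of both other maps, 48 were bridges, 45 were edges and 17 were isolated. Stretches mainly in LmnC RNAi LADs split into 23, 45 and 30 in that order, and those mainly in LmnB1 RNAi LADs into 43, 64 and 22.

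**Figure D1:**
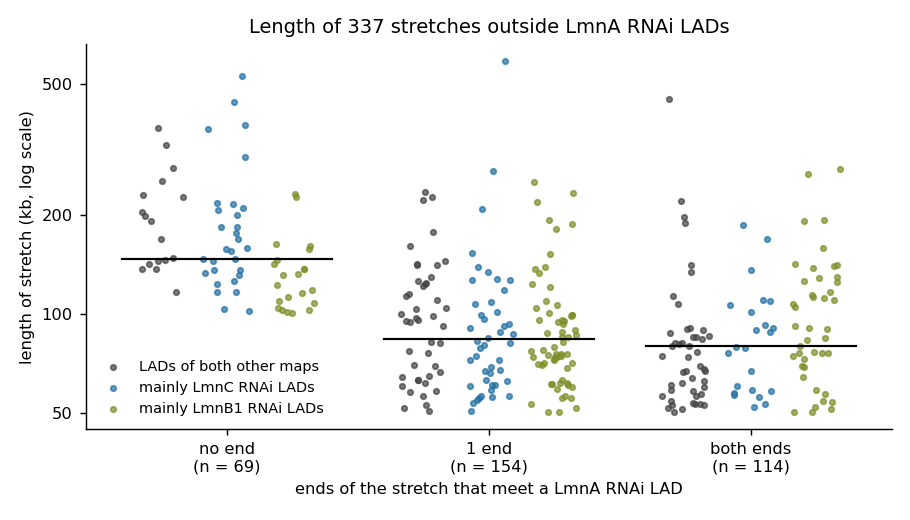
Length in kb (log scale) of each of the 337 stretches, by the number of ends that meet a LmnA RNAi LAD, with a point per stretch coloured by the LADs that hold it and a line at the median. Isolated stretches have a median of 146.7 kb, edge stretches 83.6 kb and bridges 79.6 kb.

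Bridges are gaps between LmnA RNAi LADs that LADs of the other maps covered, alone or together. The LmnA RNAi LADs had 1449 gaps of at least 50 kb between neighbours on a chromosome, and the 114 bridges are 7.87% of them. In 38 of these gaps LADs of each other map covered the whole gap. Of 1477 such gaps in the LmnC RNAi list, 297 (20.1%) lay wholly in LADs of the other maps, and of 1484 in the LmnB1 RNAi list 330 (22.2%) did. Whole domains were rarer still. On the autosomes 48 LADs of the LmnC RNAi map (9.06 Mb, median 157.5 kb) shared no base with a LmnA RNAi LAD, and 20 of these met a LAD of the LmnB1 RNAi map. In the LmnB1 RNAi map there were 41 (6.46 Mb, median 136.5 kb), of which 19 met a LAD of the LmnC RNAi map.

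Signal in the stretches was intermediate in every map. The mean log2 ratio of a stretch, weighted by fragment length, had a median of -0.36 in the LmnA RNAi map (interquartile range -0.78 to 0.01, full range -2.69 to 2.72). The median was -0.84 in the LmnC RNAi map (-1.34 to -0.42, full range -3.37 to 2.43) and -0.30 in the LmnB1 RNAi map (-0.60 to 0.08, full range -2.28 to 1.96). The full ranges overlap widely, while the interquartile range of the LmnC RNAi map lies lower and shares only a small part with that of the LmnB1 RNAi map. Pooled over all fragments, the stretches had -0.30, -0.83 and -0.23 in the LmnA, LmnC and LmnB1 RNAi maps. Sequence in LADs of all maps had 2.31, 1.53 and 1.76, and sequence in no LAD had -2.06, -3.13 and -2.17. The stretches thus lay between shared LADs and sequence in no LAD in each map, those whose lists hold them included. Sampling of fragments leaves a typical standard error (SE) of 0.31, 0.30 and 0.28 on the value of 1 stretch in the 3 maps, taken over the fragments of that stretch within its pair of libraries.

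Few stretches exceeded the median of each map's own small LADs. All lie outside LmnA RNAi LADs by the rule, 129 lie mostly outside LmnC RNAi LADs and 98 mostly outside LmnB1 RNAi LADs, which favours this. LADs of 100 to 200 kb had a median log2 ratio of 0.94 in the LmnA RNAi map (n = 304), and 12 of the 337 stretches exceeded it there (53.7% of 100 kb bins). In the LmnC RNAi map the median of such LADs was 0.62 (n = 344), exceeded by 9 stretches (43.4% of bins), and in the LmnB1 RNAi map 0.85 (n = 300), exceeded by 14 (45.4% of bins). Gaps of 50 to 200 kb between LADs of the same map had medians of -1.37 in the LmnA RNAi map, -2.03 in the LmnC RNAi map and -1.41 in the LmnB1 RNAi map. The stretches lay above these in 313, 316 and 326 of 337 cases, where 78.6%, 72.2% and 74.6% of all autosomal bins did. The rule chose on the LADs of these maps, so nothing is read from the counts.

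As deposited, signal in most stretches was higher in the LmnA RNAi map than in the LmnC RNAi map, the map that shares its fusion. The LmnA RNAi value was the lower one in 71 of 337 stretches (21.1%), against 5.87% of all 23944 autosomal bins of 100 kb. The median difference, LmnA minus LmnC RNAi, was 0.46, where a single difference has a typical SE of 0.40 over fragments. It was 0.24 in stretches in LADs of both other maps, 0.35 in those mainly in LmnC RNAi LADs and 0.82 in those mainly in LmnB1 RNAi LADs. Against the LmnB1 RNAi map the LmnA RNAi value was lower in 182 stretches (54%; 24.6% of bins), with a median difference of -0.04. By more than 0.5 it was lower than the LmnC RNAi value in 22 stretches (0.802% of bins) and higher in 162 (75.8% of bins). The LmnB1 RNAi value was undercut by that much in 86 stretches (8.24% of bins) and exceeded in 51 (48.7% of bins). In 61 stretches (18.1%) the LmnA RNAi value was the lowest of the 3 maps, against 4.17% of bins. The rule chose on these maps, so the excess over the bins is built in and nothing is read from it.

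The maps differ in their overall level, and once that was taken out the order turned. The median autosomal bin had a log2 ratio of 1.21 in the LmnA RNAi map, 0.06 in the LmnC RNAi map and 0.53 in the LmnB1 RNAi map. With each map centred on its median bin, the LmnA RNAi value was below the LmnC RNAi value in 280 stretches (62.8% of bins) and below the LmnB1 RNAi value in 310 (62.1% of bins). By more than 0.5 the centred value was below the LmnC RNAi value in 199 stretches (32.5% of bins) and above it in 12 (15.6% of bins), and it was below the LmnB1 RNAi value in 230 (33.4% of bins) and above it in 9 (13.7% of bins). It was the lowest of the 3 in 264 stretches (47.1% of bins). Leaving out fragments read in only 1 library of the pair (single-library fragments), the counts were 265 (70.4% of bins) and 296 (61.5% of bins). The median centred difference was -0.68 against LmnC RNAi and -0.72 against LmnB1 RNAi. The rule chose on these maps, which favours a low centred LmnA RNAi value. Nothing is therefore read from these counts or from the sign of the centred difference. Centring removes any true difference in overall lamina contact together with any difference in library balance, and which of these the offset holds was not tested. Without single-library fragments the median difference from LmnC RNAi was 0.19 as deposited and -0.23 centred, and the sign turned there too.

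**Figure D2:**
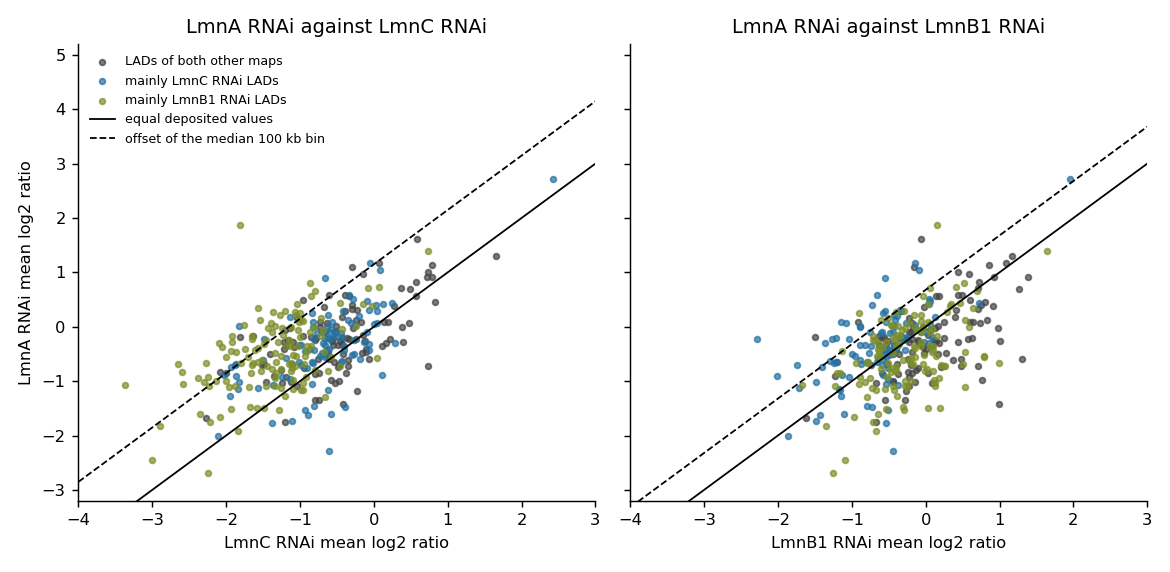
Mean log2 ratio of each of the 337 stretches in the LmnA RNAi map (vertical axis) against LmnC RNAi (left) and LmnB1 RNAi (right), with a solid line at equal deposited values and a dashed line at the offset of the median 100 kb bin (1.15 and 0.68). Most points lie between the lines on the left, above equality and below the offset, and 310 lie below the dashed line on the right.

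Ranks within a map avoid the offset. A stretch was ranked by its mean among the autosomal 100 kb bins of the same map. Its median percentile was 31.0 in the LmnA RNAi map (interquartile range 26.7 to 34.9), 40.4 in the LmnC RNAi map (35.1 to 44.8) and 39.6 in the LmnB1 RNAi map (35.9 to 44.4). The share of autosomal fragment length outside LADs was 33.2%, 42.3% and 41.4% in that order. In every map the median stretch thus sat just below the share of the genome outside LADs. The percentile was lower in the LmnA RNAi map than in the LmnC RNAi map in 300 stretches (50.4% of bins) and lower than in the LmnB1 RNAi map in 304 (49.7% of bins). The rule chose on these lists, so nothing is read from these counts either.

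The kinds of stretch differed most in the maps that held them. In stretches in LADs of both other maps the median percentile was 32.2 in the LmnA RNAi map, 44.3 in the LmnC RNAi map and 43.0 in the LmnB1 RNAi map. In those mainly in LmnC RNAi LADs it was 31.2, 42.7 and 36.2, and in those mainly in LmnB1 RNAi LADs 29.01, 35.5 and 39.8. The median rank varied least over these kinds in the LmnA RNAi map. The kinds were sorted by cover in the LmnC RNAi and LmnB1 RNAi lists, so a wider spread in those maps is built in. Nothing is read from that difference in spread. Stretches held by both lists had the highest median in all 3 maps, the LmnA RNAi map included. Across the 337 stretches the LmnA RNAi and LmnC RNAi values had a Pearson correlation of 0.58, the LmnA RNAi and LmnB1 RNAi values 0.50, and the LmnC RNAi and LmnB1 RNAi values 0.54. These describe stretches that share libraries, fragments and a narrow band of signal.

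**Figure D3:**
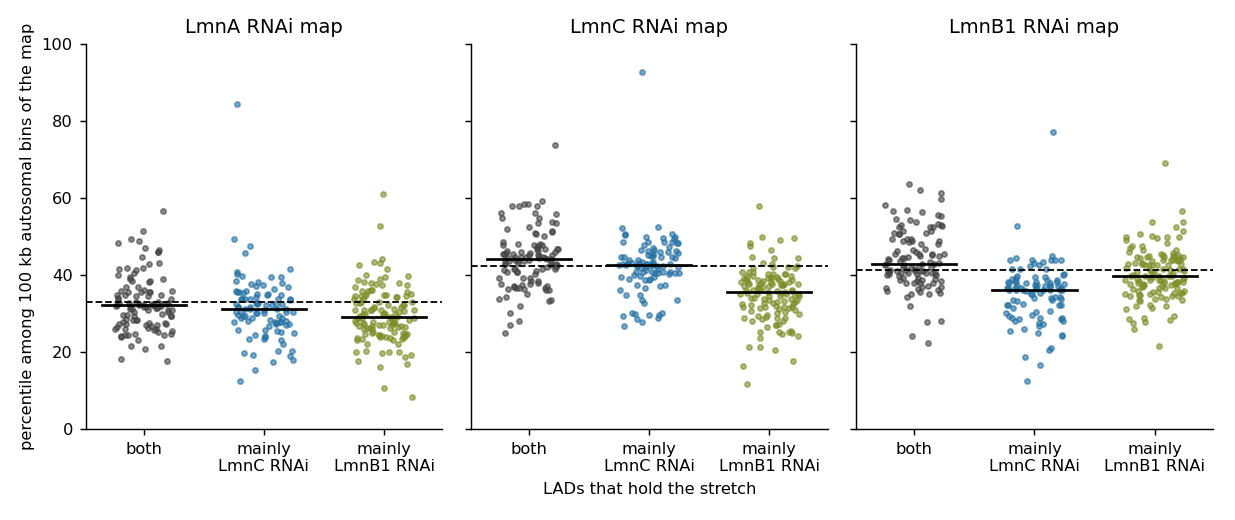
Percentile of each stretch among the 100 kb autosomal bins of the same map, in 1 panel per map and by the LADs that hold the stretch, with a solid line at each median and a dashed line at the share of autosomal fragment length outside LADs (33.2%, 42.3% and 41.4%). Most points gather around the dashed line in each panel and the line is lowest in the LmnA RNAi panel.

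On leaving a LmnA RNAi LAD the mean signal was lower in all 3 maps, and the difference was largest in the LmnA RNAi map. In the 154 edge stretches the mean was 1.54 in the last 50 kb inside the LmnA RNAi LAD and -0.62 in the first 50 kb of the stretch, a step of 2.15. At the same ends it was 0.41 and -1.04 in the LmnC RNAi map (a step of 1.45) and 0.79 and -0.45 in the LmnB1 RNAi map (1.25). The first 50 kb of the stretch was the lower side in 152 of 154 cases in the LmnA RNAi map, 142 in the LmnC RNAi map and 143 in the LmnB1 RNAi map. Of neighbouring 50 kb bins along the autosomes, 49.8%, 50.2% and 49.9% of pairs had the lower value second. Without single-library fragments the steps were 0.86, 0.76 and 0.61 in the LmnA, LmnC and LmnB1 RNAi maps. The LmnA RNAi sign is set by the choice of these ends, which also favours a larger step in that map, so nothing is read from the order. The other maps also had less signal there, although a LAD of at least 1 of them covers each stretch. Most sequence in LmnA RNAi LADs lay in LADs of all maps, which favours that sign too, so nothing is read from it.

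Deeper in the stretch the mean LmnA RNAi signal was higher again. In the 48 edge stretches of at least 100 kb, its mean in 10 kb bins was -0.61 ± 0.15 (SE over stretches) at 5 kb from the LmnA RNAi LAD, -0.15 ± 0.21 at 45 kb and 0.58 ± 0.18 at 85 kb. The LmnC RNAi mean went from -0.60 through -0.62 to -0.22 at those distances, with a low of -1.11 at 15 kb. The LmnB1 RNAi mean went from -0.07 through -0.24 to 0.10, with a low of -0.56 at 25 kb. All maps thus had their lowest mean in the first 50 kb from the LmnA RNAi LAD and higher means at 85 kb. Without single-library fragments the LmnA RNAi mean was -0.29 at 5 kb, -0.35 at 45 kb and 0.05 at 85 kb. The rise by 45 kb thus depended on those fragments. A low beside a LmnA RNAi LAD border is favoured by the choice of these ends, so nothing is read from it.

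The far end of an edge stretch is set by the LmnC RNAi or LmnB1 RNAi list alone, and the LmnA RNAi signal differed across it too. Its mean was -1.64 in the 50 kb outside and -0.11 in the last 50 kb inside, a difference of 1.53, and the inside was higher in 142 of 154 stretches (49.8% of neighbouring bin pairs). After LmnC RNAi the outside and inside means were -2.90 and -0.70, with the inside higher in 148, and in the LmnB1 RNAi map they were -2.09 and -0.09, with the inside higher in 152. The LmnA RNAi map therefore had a step at the border of another map's LAD with no LAD border of its own there. The step was 1.53 in the LmnA RNAi map, 2.20 in the LmnC RNAi map and 1.99 in the LmnB1 RNAi map. Without single-library fragments it was 0.86, 0.96 and 0.80, so its order against the LmnB1 RNAi map depended on those fragments. These ends are LAD borders of the LmnC RNAi or LmnB1 RNAi list, which favours larger steps in those maps, so nothing is read from the order.

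Isolated stretches stood out from their surroundings in all 3 maps. Local contrast is the mean of a stretch minus the mean of its 100 kb flanks, and a constant added to a map leaves it the same. It was above 0 in 69 of 69 isolated stretches in each map, where 51.3%, 51.4% and 51.4% of autosomal bins were above their neighbours in the LmnA, LmnC and LmnB1 RNAi maps. Its median was 1.41 in the LmnA RNAi map, 2.00 in the LmnC RNAi map and 1.76 in the LmnB1 RNAi map. Isolated stretches are whole domains of the LmnC RNAi or LmnB1 RNAi lists. A contrast above 0 and a larger median in those maps are thus favoured by the choice, and nothing is read from the order. The domains that had no LmnA RNAi LAD were above their flanks in the LmnA RNAi signal as well. Without single-library fragments the medians were 0.85, 0.88 and 0.69, so the contrast in the LmnA RNAi map was the lowest only with those fragments included.

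Bridges showed the opposite picture. Their contrast was below 0 in 114 of 114 cases in every map, with medians of -2.50 in the LmnA RNAi map, -1.93 in the LmnC RNAi map and -1.63 in the LmnB1 RNAi map. Over all autosomal bins contrast was above 0 in 51.3%, 51.4% and 51.4% in that order. Their flanks are LmnA RNAi LADs by construction, so the sign in the LmnA RNAi map follows from the choice. Both other maps had less signal there than in the flanks as well, although LADs of at least 1 of them cover each bridge. Of the sequence in LmnA RNAi LADs, 1273 Mb lay in LADs of all maps and 168 Mb in LmnA RNAi LADs alone. Such flanks favour a contrast below 0 in the other maps too, so nothing is read from these counts. In edge stretches, with a LmnA RNAi LAD on one side, contrast was above 0 in 46 of 154 in the LmnA RNAi map (51.3% of bins). It was above 0 in 96 in the LmnC RNAi map (51.4% of bins) and 101 in the LmnB1 RNAi map (51.4% of bins). Over all 337 stretches the LmnA RNAi contrast was below the LmnC RNAi contrast in 282 (50.4% of bins) and below the LmnB1 RNAi contrast in 281 (49.9% of bins). Every stretch lies outside LmnA RNAi LADs, and edge stretches and bridges have such LADs in their flanks. A lower LmnA RNAi contrast is thus favoured by the choice, and nothing is read from these counts.

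**Figure D4:**
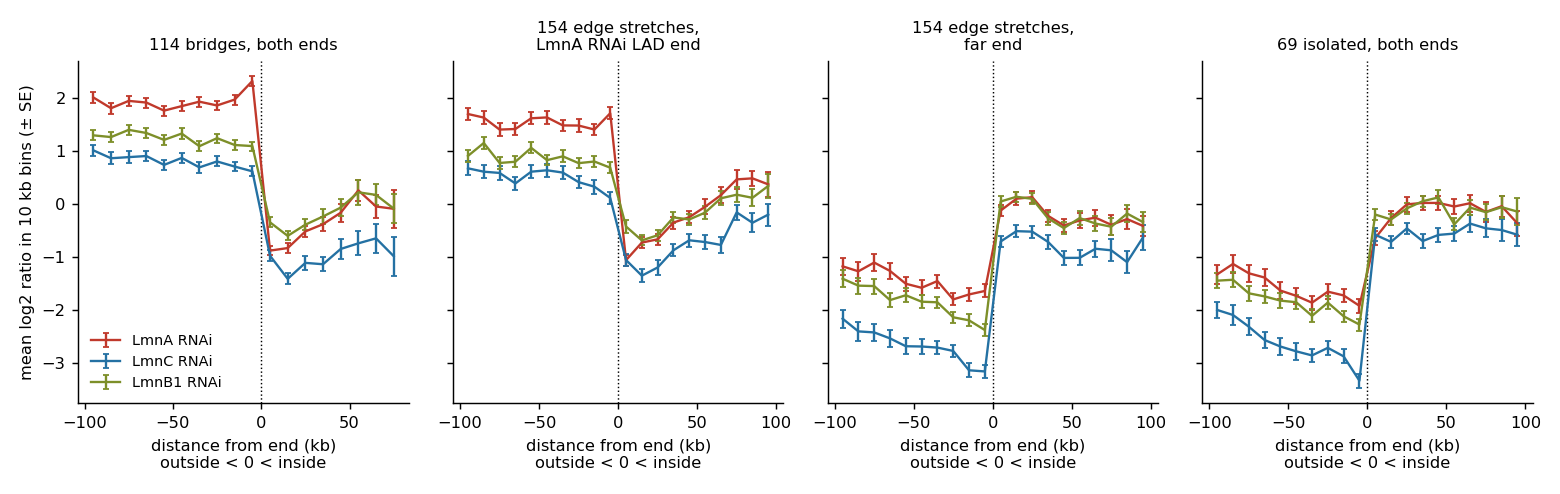
Mean log2 ratio by distance from the ends of the stretches, in bins of 10 kb out to 100 kb (negative distances outside, positive inside), by map, with bars at ± SE over ends and bins of under 20 ends left out. In all maps the mean is lower inside than outside at LmnA RNAi LAD ends of bridges and edge stretches, and higher inside at far ends (by 1.53 in the LmnA RNAi map over 50 kb) and at isolated stretches.

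Fragments read in only 1 library gave a count that the small number added before the log does not enter. Of the 93352 fragments in the stretches, 11.2% were read in the fusion library alone in the LmnA RNAi map and 10.1% in the Dam-only library alone. After LmnC RNAi these were 9.83% and 12.1%, and in the LmnB1 RNAi map 11.4% and 10.1%. Fusion-only and Dam-only fragments were thus nearly balanced in the LmnA RNAi and LmnB1 RNAi maps, and Dam-only fragments led in the LmnC RNAi map. These counts are not adjusted for the depth of each library, which is unknown, so nothing is read from that difference between maps. Sequence in LADs of all maps had 22.8% against 4.24% in the LmnA RNAi map, 18.9% against 5.65% in the LmnC RNAi map and 19.8% against 5.05% in the LmnB1 RNAi map. Sequence in no LAD had 6.60% against 16.4%, 3.85% against 23.3% and 5.10% against 19.5%.

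Set against the whole of each map, the stretches leaned to Dam-only in the LmnA RNAi map. Among fragments read in 1 library alone, the fusion library held 52.7% in the stretches and 66.8% over all autosomes in the LmnA RNAi map. It held 44.8% and 51.5% in the LmnC RNAi map, and 53.0% and 57.6% in the LmnB1 RNAi map. The gap between stretches and autosomes was widest in the LmnA RNAi map, whose LADs the rule removed, so nothing is read from that order. Fusion-only fragments outnumbered Dam-only fragments in 170 of 337 stretches in the LmnA RNAi map (71.7% of 100 kb bins), 100 in the LmnC RNAi map (54.6% of bins) and 190 in the LmnB1 RNAi map (60.2% of bins). In stretches mainly in LmnB1 RNAi LADs they did so in 58, 8 and 85 of 129. Fragments at the constant of the map, which had no reads or equal reads in both libraries, made up 32.3%, 30.2% and 31.5% of the fragments in the stretches, and 29.4%, 28.4% and 29.7% over the autosomes.

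**Figure D5:**
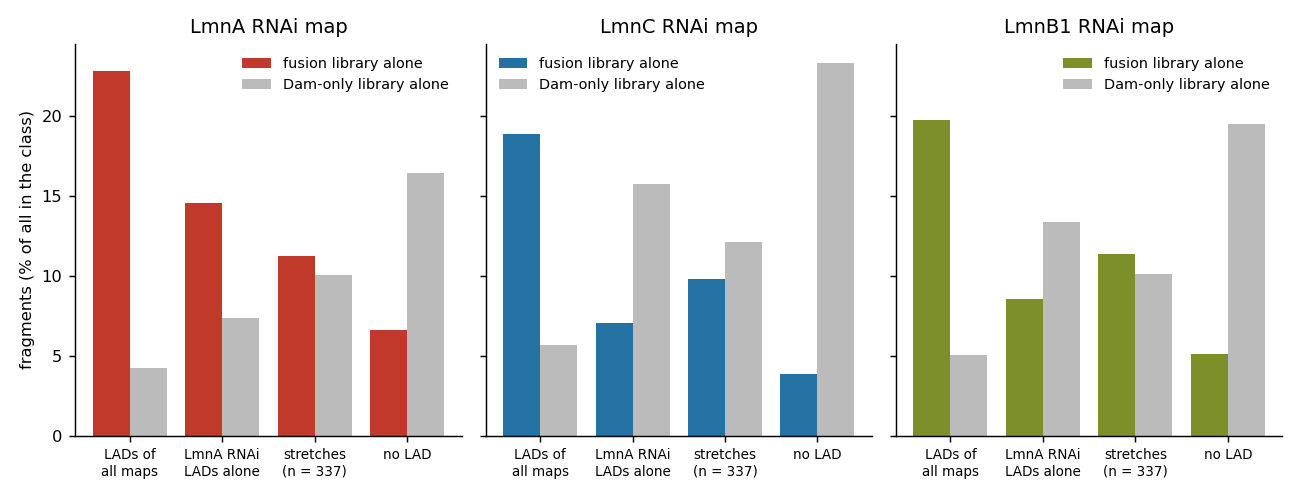
Percent of GATC fragments read in the fusion library alone (coloured) or the Dam-only library alone (grey), by map, in sequence in LADs of all maps, in LmnA RNAi LADs alone, in the 337 stretches and in no LAD. The stretches have near-equal bars in the LmnA RNAi map (11.2% and 10.1%), where LADs have mostly fusion-only and lamina-free sequence mostly Dam-only fragments.

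The longest stretch in LADs of both other maps was a bridge on chromosome 14 from 103051196 to 103499615 (448.4 kb, mm9). Its log2 ratio was -0.07 ± 0.14 in the LmnA RNAi map, -1.20 ± 0.17 in the LmnC RNAi map and 0.06 ± 0.13 in the LmnB1 RNAi map (SE over 1153 fragments). Its rank was 34.1 in the LmnA RNAi map, 36.7 in the LmnC RNAi map and 44.2 in the LmnB1 RNAi map, so it lay close to the boundary in the LmnA RNAi map. A stretch on chromosome 5 from 13534240 to 13899877 (365.6 kb), isolated by 151.9 kb, had log2 ratios of 0.17 ± 0.17 (SE over 941 fragments), -1.04 ± 0.16 and -0.22 ± 0.14 in the LmnA, LmnC and LmnB1 RNAi maps. It had its highest deposited value in the map that did not call it a LAD, but its rank was lowest there (36.8, against 38.4 in the LmnC RNAi map and 40.6 in the LmnB1 RNAi map). Without single-library fragments the ranks were 37.1, 36.9 and 39.4, so the order of the LmnA and LmnC RNAi maps depended on those fragments.

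An isolated domain on chromosome 13 from 110837841 to 111163491 (325.7 kb) lay wholly in LmnC RNAi LADs and to 99.3% in LmnB1 RNAi LADs. Its log2 ratio was -0.20 ± 0.17 in the LmnA RNAi map, -0.55 ± 0.16 in the LmnC RNAi map and 0.25 ± 0.15 in the LmnB1 RNAi map (SE over 737 fragments). It ranked at 32.6, 43.6 and 46.5, and its contrast with its flanks was 1.00, 2.50 and 2.09. With 50 kb flanks the contrast was 1.99, 3.08 and 2.45, and without single-library fragments 0.52, 1.07 and 0.65. It was lowest in the LmnA RNAi map in each case, by an amount that varied with the flank and the fragments used. On chromosome 17 from 27360131 to 27637588 (277.5 kb) the nearest LmnA RNAi LAD was 3113 kb away, and the contrast was 2.75, 2.54 and 2.41. With 50 kb flanks the contrast of this most remote stretch was 2.08, 1.94 and 2.14, so the maps had no fixed order there. The fifth longest, on chromosome 13 from 67659113 to 67911311 (252.2 kb), had 0.59 ± 0.21, -0.39 ± 0.18 and 0.49 ± 0.19 and ranked at 41.8, 45.1 and 49.4.

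Among stretches mainly in LmnC RNAi LADs the longest was an edge stretch on chromosome 2 from 92709032 to 93292883 (583.9 kb, 1394 fragments). Its deposited log2 ratio was -0.65 ± 0.12, -1.01 ± 0.14 and -0.65 ± 0.11 in the LmnA, LmnC and LmnB1 RNAi maps, and its rank was 28.0, 38.7 and 35.2. The value in the LmnC RNAi map was the lowest and its rank the highest. The next, on chromosome 19 from 6384686 to 6913286 (528.6 kb), had fragments over only 61.6% of its length, the rest being without fragments. Its log2 ratio was -1.46 ± 0.20, -0.81 ± 0.22 and -0.80 ± 0.15 in the LmnA, LmnC and LmnB1 RNAi maps. Its signal was lower in the LmnA RNAi map than in the LmnC RNAi map by 0.65 ± 0.30 and than in the LmnB1 RNAi map by 0.66 ± 0.24 (SE over 804 fragments), and it ranked at 20.4, 40.8 and 33.4. It was the longest of the stretches that were lowest in the LmnA RNAi map as deposited.

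An isolated domain on chromosome 17 from 25419239 to 25859888 (440.6 kb) lay 1752 kb from the nearest LmnA RNAi LAD. It had log2 ratios of -0.66 ± 0.13, -0.82 ± 0.13 and -1.24 ± 0.13 (SE over 1088 fragments) and contrasts of 2.41, 1.82 and 0.64. Its contrast was thus largest in the LmnA RNAi map, which has no LAD there. On chromosome 4 from 120247216 to 120620296 (373.1 kb) the values were 0.09 ± 0.16, -0.57 ± 0.16 and -0.53 ± 0.15, and LmnB1 RNAi LADs covered 32.4% of it.

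Stretches mainly in LmnB1 RNAi LADs had a median length of 94.1 kb. Those mainly in LmnC RNAi LADs had 101.2 kb, and those in LADs of both other maps 86.5 kb. A bridge on chromosome 3 from 114727176 to 115002617 (275.4 kb) was the longest mainly in LmnB1 RNAi LADs, and shorter than the longest of each other kind. It had -0.06 ± 0.18 in the LmnA RNAi map, -0.69 ± 0.18 in the LmnC RNAi map and -0.12 ± 0.16 in the LmnB1 RNAi map (SE over 678 fragments). A bridge on chromosome 5 from 141712516 to 141978026 (265.5 kb) had -0.71 ± 0.17, -1.65 ± 0.18 and 0.21 ± 0.15, with no base in LmnC RNAi LADs. Here the LmnB1 RNAi value stood above both others by more than their SEs, also without single-library fragments (-0.71, -0.93 and -0.06). The next were edge stretches, one on chromosome 2 (69419337 to 69669962) and one on chromosome 15 (59760371 to 59992613), with -0.94 ± 0.20 and -0.30 ± 0.22 in the LmnA RNAi map. They had -2.38 ± 0.22 and -2.09 ± 0.23 in the LmnC RNAi map, and -0.76 ± 0.18 and -0.65 ± 0.21 in the LmnB1 RNAi map. In both, the LmnC RNAi map had the least signal, and the LmnA RNAi and LmnB1 RNAi values differed by little more than their SEs or less.

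The stretches with the lowest LmnA RNAi signal were short. An edge stretch on chromosome 1 from 170364586 to 170439926 (75.3 kb) had -2.69 ± 0.59 in the LmnA RNAi map, -2.24 ± 0.31 in the LmnC RNAi map and -1.26 ± 0.39 in the LmnB1 RNAi map (SE over 188 fragments). A bridge on chromosome 5 from 17038694 to 17088986 (50.3 kb) had -2.44 ± 0.46, -3.00 ± 0.52 and -1.09 ± 0.30, with 0 of its 111 fragments read in the fusion library alone in the LmnA RNAi map. An edge stretch on chromosome 7 from 53960413 to 54013967 (53.6 kb), in LmnC RNAi LADs, had -2.28 ± 0.43, -0.60 ± 0.34 and -0.44 ± 0.31. The last stood apart from both other maps, and the first and second differed from the LmnC RNAi map by less than the SE of the difference, although both lay further below the LmnB1 RNAi map (-1.43 ± 0.73 and -1.35 ± 0.56).

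The 3 stretches with the highest LmnA RNAi signal lay above the median bin of that map (1.21) and still had no LAD there. The strongest was isolated, on chromosome 2 from 148564534 to 148666004 (101.5 kb), in LmnC RNAi LADs and 39.4 kb from a LmnA RNAi LAD. It had 2.72 ± 0.31 in the LmnA RNAi map, 2.43 ± 0.32 in the LmnC RNAi map and 1.96 ± 0.28 in the LmnB1 RNAi map (SE over 255 fragments), and it ranked at 84.5, 92.8 and 77.1. It is among the strong sequence of every map, and neither the LmnA RNAi list nor the LmnB1 RNAi list has it. Its length is close to the shortest LAD that the lists hold, and the part of a length limit in this was not tested. An edge stretch on chromosome 12 from 36461756 to 36584448 (122.7 kb) had 1.86 ± 0.36, -1.82 ± 0.33 and 0.15 ± 0.35, but 0.03, -0.66 and -0.45 without single-library fragments. It ranked at only 61.2 in the LmnA RNAi map, and at 42.1 there without such fragments. On chromosome 5 from 129578814 to 129699705 (120.9 kb) the values were 1.62 ± 0.28, 0.58 ± 0.23 and -0.07 ± 0.23, and 0.59, 0.15 and -0.31 without such fragments. That stretch ranked at 56.6 in the LmnA RNAi map, and at 55.8 there without single-library fragments.

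The centred values put other stretches at the ends of the order. Among those of at least 100 kb, the centred LmnA RNAi value lay furthest below the mean of the other maps on chromosome 10 (77480905 to 77625068, difference -1.84) and on chromosome 7 (51812577 to 51995437, -1.73). The chromosome 19 domain named above came next (-1.57), and all 3 were isolated and in LmnC RNAi LADs. As deposited, the chromosome 10 stretch had -1.48 ± 0.29 in the LmnA RNAi map, -0.38 ± 0.28 in the LmnC RNAi map and -0.73 ± 0.29 in the LmnB1 RNAi map. The chromosome 7 stretch had -1.54 ± 0.25, -0.93 ± 0.34 and -0.51 ± 0.19. At the other end were the chromosome 12 stretch (1.79 above), one on chromosome 14 from 57984331 to 58184050 (0.59) and the chromosome 5 stretch at 129578814 (0.45).

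Stretches were spread over all autosomes. Their number ran from 7 on chromosome 18 to 31 on chromosome 1. As a share of the LADs of the LmnC RNAi or LmnB1 RNAi map, they held least on chromosomes 12 (1.22%), 8 (1.32%) and 18 (1.34%) and most on chromosomes 19 (4.56%), 13 (3.75%) and 11 (3.63%). Chromosome 11 had 24 stretches and the largest share of fragment length outside LADs in each map (46.8%, 53.8% and 53.6%), and chromosome 13 had 23. The 10 Mb nearest the first mapped fragment of each chromosome, the centromere side, held 25 stretches (7.42%) and the last 10 Mb held 34 (10.1%), where such windows make up 7.87% of the autosomes. They were mostly solitary. The nearest other stretch was a median of 1829 kb away, it was within 1 Mb for 126 stretches, and no 5 Mb window held more than 4.

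The density of GATC sites differed in its median between the kinds of stretch. The rule used fragment number only through its minimum of 20, which removed 1 stretch. Isolated stretches had a median of 2.53 fragments per kb (interquartile range 2.39 to 2.65), edge stretches 2.45 (2.31 to 2.65) and bridges 2.30 (2.12 to 2.51). Sequence in LADs of all maps had 2.59 fragments per kb in the pool and sequence in no LAD 2.41. Pooled in the same way, isolated stretches had 2.54, edge stretches 2.49 and bridges 2.34. Isolated stretches thus lay nearer to LAD sequence, and bridges below lamina-free sequence, while the interquartile ranges of the kinds overlapped. The median fragment in LADs of all maps was 246 bp, in the stretches 270 bp and in no LAD 281 bp. DamID reads only GATC sites, so this density also sets how many fragments support a value.

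Near the length threshold the choice was fine-grained. The shortest members, the chromosome 5 bridge at 17038694 and a stretch on chromosome 14 from 21110855 to 21161177, were both 50.3 kb long. Just below the threshold were stretches on chromosome 4 (66398596 to 66448325, 49.7 kb) and chromosome 11 (88929840 to 88979422, 49.6 kb). The LmnA RNAi log2 ratio was -2.44 and -1.61 in the former and 0.74 and -0.03 in the latter. Only 1 stretch of sufficient length, on chromosome 9, was dropped for too few fragments (13 over 55.0 kb). Gene names and the DNA sequence of the stretches are not given, since no annotation or genome of the mm9 build was used here.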

How the data were processed

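Bowtie (no version) and the mm9 build are named, per the submitters' processing notes. How reads were filtered and LADs called is not stated in the sources used here. Signal was deposited by the authors as a log2 ratio per GATC fragment. From its steps, it is the ratio of fusion to Dam-only reads after adding 1e-05 to each, shifted by -0.34, 0.21 and -0.15 in the LmnA, LmnC and LmnB1 RNAi maps. Values beyond 12 in size were read as 0 reads in 1 library, and reads recovered from them were whole within 0.02 in 100% of values up to 100 reads. Such fragments weigh heavily in a mean. Total reads per library are unknown, so precision is given as the SE over fragments.

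LAD lists hold starts and ends, in BED coordinates, as the authors deposited them, and starts are printed 1-based. A fragment belonged to a stretch if its middle did. Means were weighted by length. Bins of 100 kb with at least 50% cover were used for centring and ranks. A stretch was in LADs of a map from 50% cover. Named stretches were the 5 longest held by both other maps, the 4 longest held mainly by each, the 3 lowest and highest by LmnA RNAi signal and by centred difference (from 100 kb), and those next to the threshold. The rule, members and measures were chosen with earlier results of these data known. Python 3.11.15, numpy 2.4.6 and pandas 2.3.3 were used, and the interval and averaging steps were tested on simulated data. Alternatives were other length and fragment limits, filled or widened LADs, X added, centring, quantile normalization, and other treatment or subsets of fragments.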

Additional observations from a re-analysis of the deposited data

How the results depend on the processing

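The length limit set the number of stretches: 603 (47.8 Mb) from 25 kb and 152 (25.2 Mb) from 100 kb, against 337 (38.4 Mb). Other limits on fragments, widening the LmnA RNAi LADs by 10 kb (270 stretches) and adding X (353) stayed within 1.5 times. Under each, the rule with LmnC or LmnB1 RNAi subtracted gave more stretches.

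The median difference from LmnC RNAi, 0.46 as deposited, turned to -0.68 centred, -0.35 after quantile normalization and -0.23 centred without single-library fragments. The cause of these turns beyond the removed offset was not tested. The difference stayed between 0.16 and 0.54 in the other settings run. The median difference from LmnB1 RNAi (-0.04) went to -0.72 centred and stayed below 0 in all settings run. Without single-library fragments the LmnA RNAi step at its LAD border was 0.86 at edge stretches and 1.17 at bridges, and the LmnB1 RNAi step at edge stretches 0.61. The LmnA RNAi step was the largest in both, an order that the choice of LmnA RNAi LAD borders favours. The inside at bridges was limited to bins centred less than 25 kb from the border, against 50 kb at edge stretches. Their step sizes are therefore not set against each other. At the far border of edge stretches the step without these fragments was 0.86, 0.96 and 0.80 in the LmnA, LmnC and LmnB1 RNAi maps, against 1.53, 2.20 and 1.99, and the order of the LmnA and LmnB1 RNAi maps turned. The median contrast of isolated stretches was 0.85, 0.88 and 0.69, with the same turn.

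No paired analysis was possible because each group held 1 library. Choices added after the data were seen were 1 bp in place of 50% cover (176 stretches in both, 70 and 91, so that most are then shared), ranks among 50 kb bins, 50 kb flanks, and contrasts without single-library fragments. The median local contrast over all stretches, close to 0 in these maps, changed sign from -0.05 to 0.083 with 50 kb flanks in the LmnC RNAi map and from 0.01 to -0.057 without single-library fragments in the LmnB1 RNAi map; the cause was not tested. With 1 pair of libraries a map, the spread between repeat maps is unknown.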

Other observations

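On chromosome X the same rule gave 16 stretches (1.66 Mb). The longest, from 139917997 to 140264844 (346.8 kb), was in LmnB1 RNAi LADs alone. A stretch picked after its values were seen, from 7034997 to 7138601 (103.6 kb) was in LmnC RNAi LADs alone, with log2 ratios of 1.68 in the LmnA RNAi map, -1.06 in the LmnC RNAi map and -0.04 in the LmnB1 RNAi map, so the map that called it a LAD had the lowest deposited value. That map also had the lowest median autosomal bin. On the autosomes a further 1121 remainders were shorter than 50 kb (16.3 Mb in all, median 9299 bp).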
